A study of Mus musculus with 6 samples.

Results

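This section describes 41 genes of the intestinal brush border and of enterocytes, measured by RNA-seq in isolated mouse pancreatic islets held for 24 h at low or high glucose. The genes are 41 of the 46983 rows of the count table. They were listed by symbol as enterocyte, brush border and gut detoxification genes, and some of them were picked because they were nearly absent at high glucose. The difference between low and high glucose was therefore part of how the genes were chosen, and it is given below as a description. Counts past a threshold and counting intervals for that difference describe these libraries and are not evidence of a difference. The order of the low glucose libraries among themselves and the position and promoters of the genes are not measures of that difference. Across the 41 genes, however, the spread among the low glucose libraries went with the size of the difference, as given below.

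The low glucose group was wild-type islets cultured in CMRL medium at a non-stimulating glucose concentration, with 3 libraries called low 1 to low 3 here. The high glucose group was wild-type islets cultured in the same medium at a stimulating concentration, with 3 libraries called high 1 to high 3. No genetic change or other agent was named for either group, and both were islets kept in culture before RNA extraction. Glucose concentrations, strain, sex and age of the mice, and how many animals stand behind each library are not given in the sources used here. Redox signalling in the metabolic adaptation of beta cells is the subject of the series.

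Enterocytes are the absorptive cells of the small intestine, and their apical membrane is folded into actin-filled microvilli that form the brush border. This membrane carries the enzymes that finish the digestion of sugars and peptides and the carriers that take up the products. Absorbed fat is re-esterified inside the cell and leaves it in chylomicrons, lipoprotein particles built around apolipoprotein B. The same cells hold cytochrome P450 enzymes and carboxylesterases that act on drugs and dietary chemicals, and CDX transcription factors set the intestinal identity of the epithelium. Islet endocrine cells, the tissue named in the labels, have no brush border and assemble no chylomicrons.

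Library totals ranged from 10596020 to 15846235 counts. Levels are given in CPM, counts per 1e+06 reads of a TMM-scaled library, where TMM sets the scale from the bulk of genes. Markers of the labelled tissue were present in every library. The 13 islet markers took 4.50%, 2.11% and 2.28% of the counts in low 1 to low 3 and 9.11%, 3.32% and 3.85% in high 1 to high 3. The 28 acinar markers, mostly genes of enzymes the exocrine pancreas secretes, took 48.9%, 64.7% and 62.4% at low glucose and 12.6%, 25.01% and 24.2% at high glucose. In bulk RNA, fewer cells of a type and less RNA per cell cannot be told apart.

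Enterocyte genes of every kind in the list were present at low glucose. The 41 genes summed to 9231, 6941 and 3122 CPM in low 1 to low 3. At high glucose they summed to 310.4, 225 and 262 CPM. Of the unscaled library totals they took 0.866%, 0.394% and 0.170% at low glucose and 0.0554%, 0.0307% and 0.0367% at high glucose. The groups lie closer by these shares than by CPM, which uses TMM-scaled sizes. The median gene stood at 91.4, 66.0 and 29.4 CPM in the low glucose libraries and at 0.637, 0.200 and 0.101 CPM in the high glucose libraries. No gene was at 0 counts in a low glucose library, whereas 2, 10 and 11 genes were at 0 in high 1 to high 3. For all 41 genes every low glucose library was above every high glucose library, and 22.4% of the 13996 genes tested showed that pattern. Of the 41 genes, 37 passed the filter on low counts, and all 37 passed the edgeR threshold as lower at high glucose, where 14.2% of all genes tested did. Neither count is evidence about these genes, since the contrast helped to choose them. The 4 that did not pass the filter were Cdx1, Cdx2, Guca2a and Xpnpep2.

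**Figure D1:**
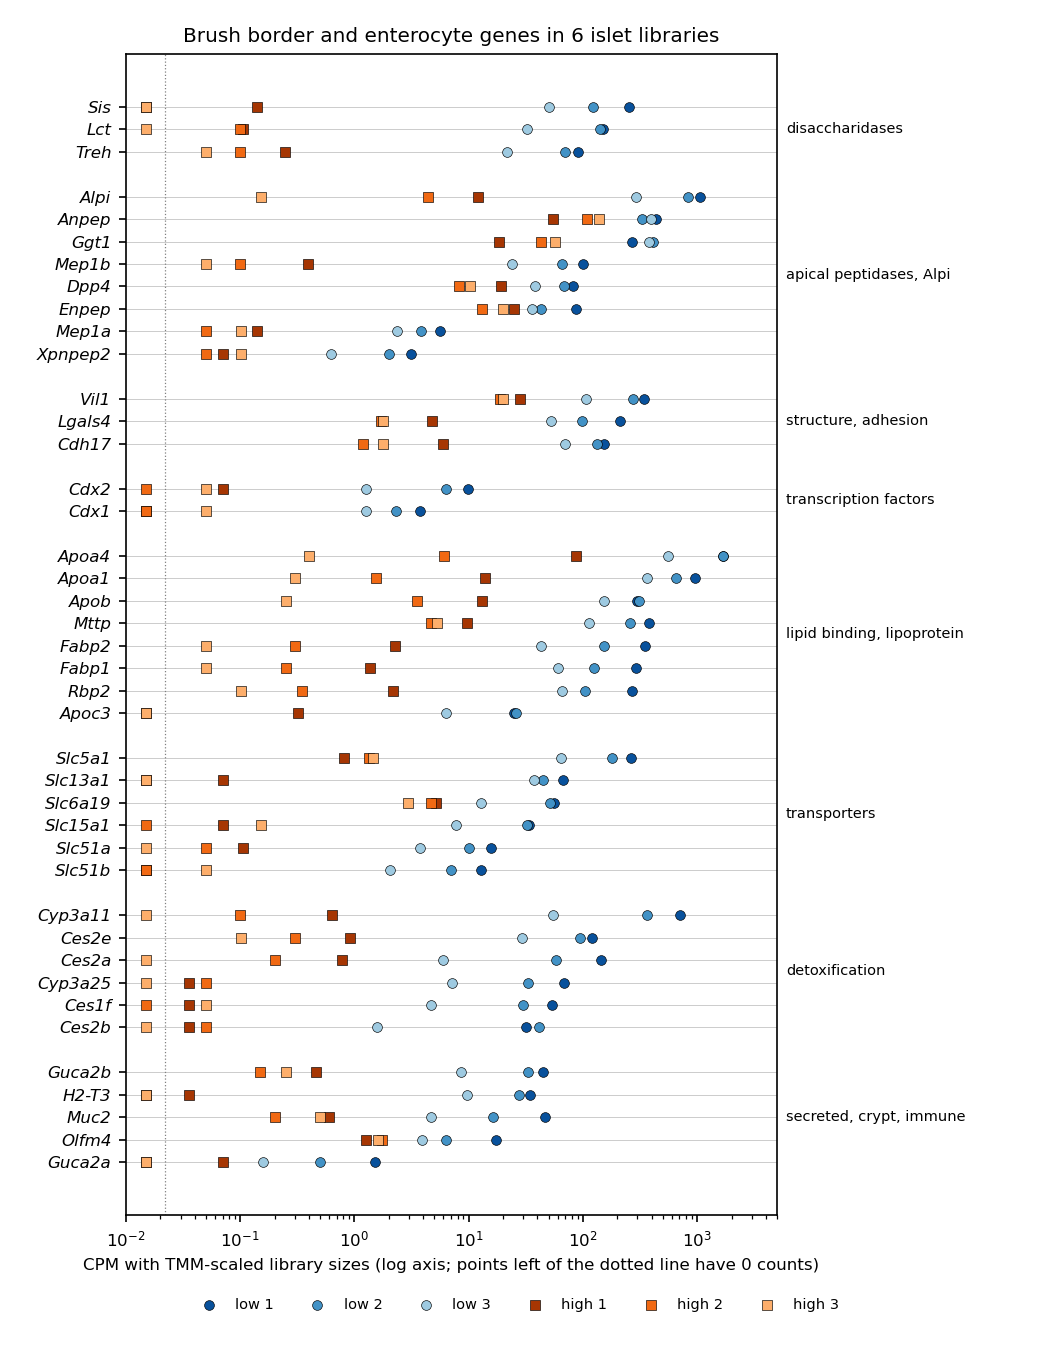
Level of each of the 41 genes in each of the 6 libraries, in CPM on a log axis, with genes grouped by role (circles, low glucose; squares, high glucose). The circles of a gene lie to the right of its squares for all 41 genes, and the squares range from 0 counts (left of the dotted line) to 137 CPM for Anpep in high 3.

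Promoter sequences are shown for 4 genes whose mean was over 100 CPM in the low glucose group and under 6 CPM in the high glucose group, chosen because a search found motif matches in them. The 250 bases before the transcription start are given, from RefSeq (GRCm38.p6), 5′ to 3′ on the strand of the gene. Capitals mark matches to motifs of intestinal transcription factors. The motifs were TTTATNG for CDX, GTTAAT for HNF1, AAAGTCC for HNF4 and AGATAA for GATA factors, searched on both strands.
Sis, chr3:72967864-72968113, minus strand: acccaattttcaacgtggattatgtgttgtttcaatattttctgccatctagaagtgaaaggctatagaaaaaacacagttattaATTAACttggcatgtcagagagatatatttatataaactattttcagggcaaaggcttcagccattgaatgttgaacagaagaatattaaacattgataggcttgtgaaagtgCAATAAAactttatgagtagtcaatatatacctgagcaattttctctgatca
Fabp1, chr6:71199629-71199878, plus strand: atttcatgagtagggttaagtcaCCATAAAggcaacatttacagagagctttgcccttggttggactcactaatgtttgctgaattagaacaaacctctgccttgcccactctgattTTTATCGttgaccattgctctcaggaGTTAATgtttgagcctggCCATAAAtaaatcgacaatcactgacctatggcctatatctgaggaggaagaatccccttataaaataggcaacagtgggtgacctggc
Rbp2, chr9:98490287-98490536, plus strand: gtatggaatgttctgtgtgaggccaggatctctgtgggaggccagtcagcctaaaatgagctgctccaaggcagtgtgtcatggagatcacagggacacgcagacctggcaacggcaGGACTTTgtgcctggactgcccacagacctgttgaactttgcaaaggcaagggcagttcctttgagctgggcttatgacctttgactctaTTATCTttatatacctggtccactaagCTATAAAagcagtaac
Alpi, chr1:87101607-87101856, minus strand: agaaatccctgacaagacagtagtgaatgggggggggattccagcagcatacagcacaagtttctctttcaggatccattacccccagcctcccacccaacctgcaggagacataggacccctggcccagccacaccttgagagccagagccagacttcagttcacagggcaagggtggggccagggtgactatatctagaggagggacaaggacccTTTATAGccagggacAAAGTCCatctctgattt

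In the Sis promoter the CDX match began 52 bases before the start and the HNF1 match 165 bases before it. The Fabp1 promoter held 3 CDX matches and 1 HNF1 match. The RefSeq table had a promoter for 34 of the 41 genes. The CDX motif was found for 8 of the 34 genes and for 11.3% of the 27025 genes with a promoter. Of the 10 CDX matches, 3 overlapped the letters TATAAA, searched on the strand of the gene only. These were in Dpp4, Apob and Rbp2 and began at -228, -61 and -16 relative to the start. The Alpi match TTTATAG at -33 holds TATAAA on the opposite strand. Whether these letters act as a TATA box was not tested. The HNF4 motif was found for 8 of 34 genes against 4.15% of all genes, the HNF1 motif for 5 of 34 against 7.49%, and the GATA motif for 6 of 34 against 11.4%. These matches describe the letters in a window of 250 bases and are not shown to be sites of binding.

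Several of the genes are neighbours in the genome. Apoa1, Apoc3 and Apoa4 lie side by side on chromosome 9 between 46228580 and 46243459 (GRCm38), with gaps of 2466 and 5059 bases between them. Guca2a and Guca2b are 17135 bases apart on chromosome 4, Cyp3a11 and Cyp3a25 lie on chromosome 5, and Ces2a, Ces2b and Ces2e lie within 1 carboxylesterase cluster on chromosome 8. The Cyp3a, carboxylesterase and H2 genes belong to families of similar genes, and how reads shared within a family were counted was not tested, so their counts are given as uncertain. The strand setting of the counting was not given in the sources used here, so reads of overlapping genes on the opposite strand, such as Usp37 at Vil1 and Phldb1 at Treh, could not be told apart.

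The disaccharidases, which split dietary sugars at the brush border, were among the genes with the widest gap between the groups. Sis encodes sucrase-isomaltase and lies on chromosome 3 (72888557 to 72967863). It had 251, 123 and 50.9 CPM in low 1 to low 3 and 0.141, 0 and 0 CPM in high 1 to high 3, where the 3 high glucose libraries together held 4 counts. Lct, the lactase gene on chromosome 1 (128284756 to 128328318), had 148, 141 and 32.6 CPM at low glucose and 0.106, 0.0998 and 0 CPM at high glucose. Treh, which encodes trehalase, had 91.4, 69.3 and 21.9 CPM against 0.248, 0.0998 and 0.0504 CPM. In all 3 genes low 1 was highest and low 3 lowest among the low glucose libraries.

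At high glucose the apical peptidases and the alkaline phosphatase ranged from genes close to absence to genes that kept a clear level. Alpi, the intestinal alkaline phosphatase gene on chromosome 1, was at 1069, 839 and 290 CPM at low glucose and at 11.99, 4.39 and 0.151 CPM at high glucose. Mep1b, the meprin beta subunit gene, had 100.01, 66.0 and 23.7 CPM against 0.389, 0.0998 and 0.0504 CPM. Mep1a, the meprin alpha subunit gene, was low throughout, with means of 3.93 CPM in the low and 0.0974 CPM in the high glucose group. Xpnpep2, an aminopeptidase P gene, had the lowest level per length of the 41 genes in the low glucose group.

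Anpep, Ggt1, Dpp4 and Enpep kept a higher mean level at high glucose than these, although Alpi in high 1 was above Dpp4 in high 2 and high 3. Anpep, which encodes aminopeptidase N, had 439, 328 and 391 CPM in low 1 to low 3 and 55.3, 109 and 137 CPM in high 1 to high 3. Ggt1, the gamma-glutamyltransferase gene, had 269, 408 and 381 CPM against 18.6, 43.1 and 56.5 CPM. Both genes were lowest in high 1 among the high glucose libraries, and Ggt1 was also lowest in low 1 among the low glucose libraries. Dpp4, the gene of the incretin-degrading dipeptidyl peptidase, had 81.5, 68.3 and 38.1 CPM against 19.1, 8.19 and 10.3 CPM. Enpep, which encodes aminopeptidase A, had 86.5, 42.7 and 35.5 CPM against 24.9, 13.03 and 20.2 CPM, the smallest ratio of group means among the 41 genes (2.84). These 4 enzymes are known from other epithelia as well, such as the kidney tubule. With library totals as the scaling, where the median of all genes moved to 1.16, the log2 fold change of Enpep was -0.47 and that of Anpep -0.88.

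Genes of brush border structure and adhesion kept a low but countable level at high glucose. Vil1, the villin gene on chromosome 1 (74409376 to 74435559), encodes an actin-bundling protein of microvilli. It had 342, 273 and 106 CPM at low glucose and 28.3, 18.7 and 19.9 CPM at high glucose. Lgals4, which encodes galectin 4, a lectin of the gut epithelium, had 209, 99.1 and 52.4 CPM against 4.78, 1.70 and 1.76 CPM. Cdh17, the LI-cadherin gene, had 153, 133 and 69.8 CPM against 6.01, 1.20 and 1.76 CPM. For all 3 genes high 1 was the highest of the high glucose libraries.

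The intestinal transcription factor genes Cdx1 and Cdx2 were counted at low levels, and in both low 1 was highest and low 3 lowest among the low glucose libraries by CPM. Cdx2 had 117, 38 and 8 counts in low 1 to low 3 and 2, 0 and 1 counts in high 1 to high 3. Cdx1 had 45, 14 and 8 counts against 0, 0 and 1. For Cdx2 the ratio of scaled counts, low over high, was 152 with an exact 95% interval of 51.2 to 746. For Cdx1 it was 188, with an interval of 32.6 to 7523. These Clopper-Pearson intervals, and the exact intervals given below, treat the counts of a group as pooled and cover counting error only.

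Lipid-handling genes included the highest level of the list. Apoa4, an apolipoprotein gene of chylomicrons, had 1678, 1676 and 560 CPM in low 1 to low 3 and 86.3, 6.04 and 0.403 CPM in high 1 to high 3. Apoa1 had 964, 649 and 363 CPM against 14.01, 1.55 and 0.302 CPM. Apob, the structural protein gene of chylomicrons, had 300, 310 and 154 CPM against 13.2, 3.49 and 0.252 CPM. In these 3 genes the high glucose libraries differed from each other by a larger ratio than the low glucose libraries did, with high 1 far above high 3. Apoc3, an inhibitor of lipoprotein lipase, had 24.8, 25.8 and 6.29 CPM against 0.318, 0 and 0 CPM.

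The small cytosolic lipid carriers followed the apolipoproteins. Fabp1, the liver-type fatty acid binding protein gene, which enterocytes share with hepatocytes, had 290, 125 and 60.5 CPM against 1.38, 0.25 and 0.0504 CPM. Fabp2, the intestinal form, had 351, 153 and 42.9 CPM against 2.26, 0.30 and 0.0504 CPM. Rbp2, the cellular retinol binding protein of the gut, had 269, 105 and 66.0 CPM against 2.16, 0.349 and 0.101 CPM. All 3 were highest in low 1 and in high 1. Mttp, whose protein loads lipid onto apolipoprotein B, had 378, 261 and 113 CPM against 9.62, 4.64 and 5.29 CPM, so that high 2 and high 3 were alike for this gene and not for Apob.

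Transporter genes also ranged from genes close to absence at high glucose to genes that kept more. Slc5a1, the sodium-glucose cotransporter gene on chromosome 5, had 263, 180 and 64.5 CPM at low glucose and 0.814, 1.35 and 1.46 CPM at high glucose, with high 1 the lowest of its group. Slc13a1, a sulfate transporter gene, had 66.3, 45.0 and 37.0 CPM against 0.0707, 0 and 0 CPM. Its ratio of scaled counts was 1818, with an exact 95% interval of 502 to 15030 from 2 counts at high glucose. Slc6a19, the neutral amino acid transporter gene, kept more, with 56.0, 51.0 and 12.9 CPM against 5.20, 4.64 and 2.92 CPM. The peptide transporter gene Slc15a1 had 33.6, 32.4 and 7.71 CPM against 0.0707, 0 and 0.151 CPM. Slc51a and Slc51b, which encode the subunits of the basolateral bile acid exporter, had 10 times or more the level of any high glucose library in each low glucose library, and the high glucose libraries held 4 and 1 counts.

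The detoxification genes were the most unequal among the low glucose libraries. Cyp3a11 had 705, 364 and 54.4 CPM in low 1 to low 3 and 0.637, 0.0998 and 0 CPM in high 1 to high 3. Ces2a had 143, 57.8 and 5.98 CPM against 0.778, 0.200 and 0 CPM. Ces2e had 121, 94.8 and 29.4 CPM against 0.920, 0.30 and 0.101 CPM. In low 1 the 6 detoxification genes summed to 1123 CPM and in low 3 to 103 CPM. Cyp3a25, Ces1f and Ces2b had 2 counts each over the high glucose libraries. Their ratios of scaled counts were 1476 (exact 95% interval 408 to 12208), 1202 (332 to 9940) and 895 (247 to 7407). The intervals leave out the spread among libraries, and Ces2b had 32.0, 41.1 and 1.57 CPM in low 1 to low 3.

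The last group held secreted, crypt and immune genes of the gut epithelium. Guca2b, the uroguanylin gene, had 44.8, 33.2 and 8.49 CPM at low glucose and 0.460, 0.150 and 0.252 CPM at high glucose. Guca2a, the guanylin gene, was much lower, with 18, 3 and 1 counts against 2, 0 and 0. Muc2, the main mucin gene of goblet cells, had 46.6, 16.3 and 4.72 CPM against 0.601, 0.200 and 0.504 CPM. Olfm4, known as a crypt gene, had 17.5, 6.32 and 3.93 CPM against 1.27, 1.75 and 1.61 CPM, and its high glucose libraries were nearly equal. H2-T3, the thymus leukemia antigen gene, had 34.6, 27.6 and 9.59 CPM against 0.0354, 0 and 0 CPM, a single count in the high glucose group, with a ratio of 1796 (exact 95% interval 321 to 71041).

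Over the whole list the log2 ratio of group means, high over low, ranged from -11.55 for Sis to -1.51 for Enpep, with a median of -7.16 over the 41 genes and 0.02 over the genes tested. The ratio was at least 10-fold for 35 genes and at least 100-fold for 25. It was under 4-fold for 2 genes, Anpep (3.85) and Enpep (2.84). Counts over the high glucose group were 10 or fewer for 17 genes. By role, the median log2 ratio was -10.61 for the 3 disaccharidases, -9.90 for the 6 detoxification genes, -7.97 for the 6 transporters and -7.18 for both the 8 lipid-handling genes and the 2 transcription factors. It was -5.70 for the 5 secreted, crypt and immune genes, -5.31 for the 3 structure genes and -3.93 for the 8 peptidase and phosphatase genes.

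Levels per length were compared as CPM per kb of annotated exons. In the low glucose group Apoa4 was highest at 719 CPM per kb, followed by Apoa1 at 533, Alpi at 314, Fabp1 at 287, Fabp2 at 189 and Rbp2 at 152. Ggt1 (103) and Anpep (93.3) came next, and Cyp3a11 had 73.6. The lowest were Guca2a at 1.21, Mep1a at 1.14 and Xpnpep2 at 0.391. Across the 41 genes the order of levels per length was similar in the low glucose libraries, with a Spearman rho of 0.98 between low 1 and low 2 and of 0.93 between low 1 and low 3. Between the means of the groups it was 0.69. These correlations are across genes of the same libraries, and genes are not independent replicates.

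The low glucose libraries differed from each other in a way most of the 41 genes shared. CPM ranked low 1, low 2, low 3 from highest to lowest for 36 of 41 genes, and for 22.8% of the genes tested. The exceptions were Anpep, Ggt1, Apob, Apoc3 and Ces2b. The median ratio of low 1 to low 3 was 4.18 over the 41 genes and 1.00 over the genes tested, and 2.16% of the genes tested had a ratio of 4.18 or more. By role this ratio had a median of 12.2 for the detoxification genes, from 4.10 for Ces2e to 23.9 for Ces2a. For the other groups the medians lay between 2.41 for the peptidase and phosphatase genes and 5.39 for the transcription factors. Ggt1 was the only gene of the 41 with a ratio under 1 (0.704). The ratio of low 1 to low 3 had a Spearman rho with the log2 ratio of group means, high over low. It was -0.47 across the 41 genes and -0.09 across the genes tested. Both ratios use the same low glucose libraries, and the reason for this link was not tested. The islet markers had a median ratio of 1.24 and the acinar markers 0.466. The part of these mixtures in the order of the libraries was not tested.

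**Figure D2:**
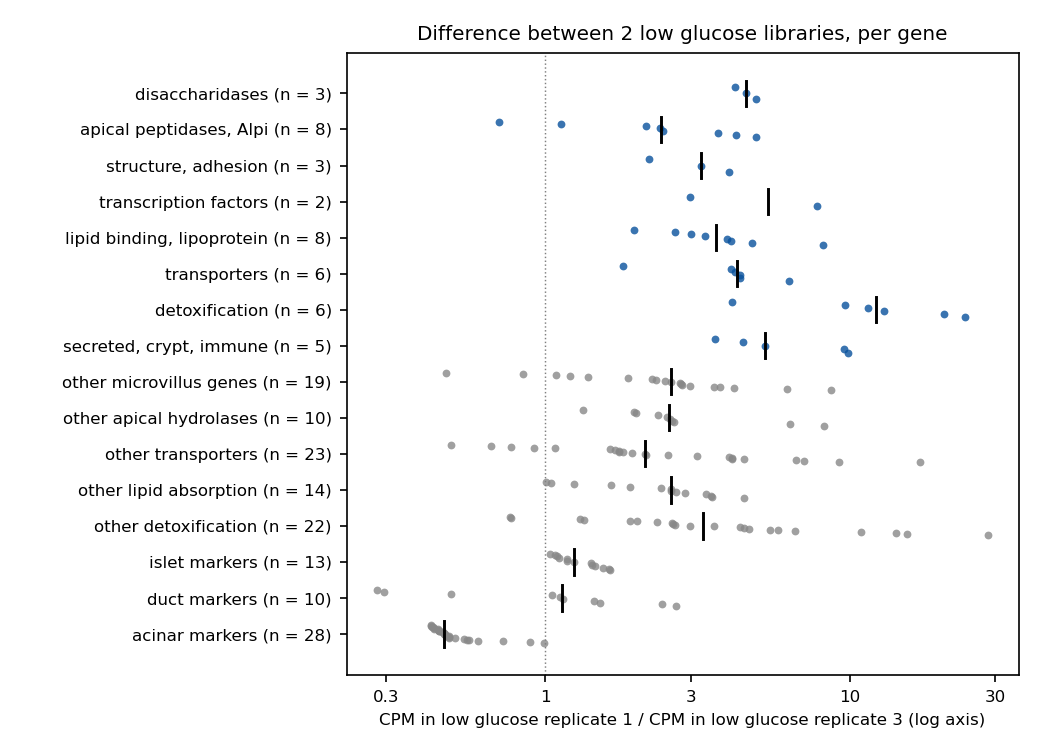
Ratio of CPM in low 1 to CPM in low 3 for each gene (log axis), for the 41 genes by role (blue) and for tested genes of other lists (grey); black bars are medians and the dotted line is equality. The detoxification genes reach 23.9, Ggt1 alone among the 41 lies below 1, and the acinar markers have a median of 0.466.

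The high glucose libraries also differed in which of the genes they held. High 1 was the highest of its group for 30 of 41 genes, and for 41.2% of the genes tested. Counts over the 3 high glucose libraries were 10 or fewer for 17 of the 41 genes and 3 or fewer for 9. For those genes the highest library rests on few counts, and high 1 also had the largest TMM-scaled size. High 1 held 93.1% of the Apoa4 signal summed over the high glucose libraries, 88.3% for Apoa1 and 86.6% for Fabp2. It held 42.3% for Vil1, 22.5% for Slc5a1, 27.5% for Olfm4, 18.4% for Anpep and 15.7% for Ggt1. The 8 lipid-handling genes summed to 129, 16.6 and 6.45 CPM in high 1 to high 3. The 3 structure genes summed to 39.1, 21.6 and 23.4 CPM and the 6 transporters to 6.26, 6.04 and 4.59 CPM. Vil1 (28.3, 18.7 and 19.9 CPM) made up most of the structure sum and Slc6a19 (5.20, 4.64 and 2.92 CPM) most of the transporter sum. The structure genes Lgals4 (4.78, 1.70 and 1.76 CPM) and Cdh17 (6.01, 1.20 and 1.76 CPM) were far higher in high 1 than in high 2 or high 3. The makeup of the signal changed accordingly. Apoa4, Alpi and Apoa1 made up 40.2%, 45.6% and 38.9% of the summed CPM of the 41 genes in low 1 to low 3, and 36.2%, 5.33% and 0.327% in high 1 to high 3. Anpep, Ggt1, Vil1, Dpp4 and Enpep made up 13.2%, 16.1% and 30.5% at low glucose and 47.1%, 85.3% and 93.3% at high glucose. These 2 sets were put together after their values had been seen.

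**Figure D3:**
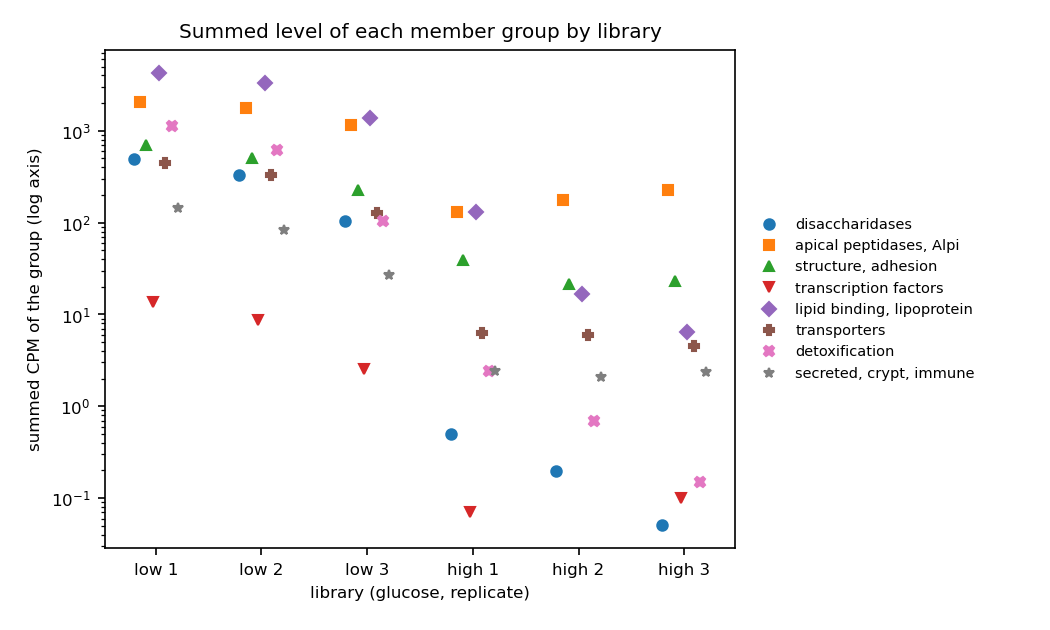
Summed CPM of each role group of the 41 genes in each library, on a log axis (1 marker per group and library; the transcription factors are at 0 in high 2). The lipid-handling genes spread from 129 to 6.45 CPM across the high glucose libraries. The transporter sum, made up mostly of Slc6a19 there, stays between 4.59 and 6.26 CPM.

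Intestinal genes outside the 41 were then examined in 6 further lists for absorptive cells, which named 113 other genes of the table. Of the 104 tested, 75 were lower and 1 was higher at high glucose by edgeR, against 14.2% lower and 13.3% higher of all genes tested. With library totals 58 were lower and 12 higher. The gene that rose was Cyp1a1 (1.47 ± 0.38, adjusted p = 0.0273), named here after its value was seen, and its list had no higher call without low 1, low 3 or high 3. These lists were written with earlier results of these data known. A gene that passes the filter on low counts only through its low glucose libraries has to be lower at high glucose, so passing and being lower are linked.

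Other apical hydrolases were lower in 9 of 10 tested cases. Mgam, the maltase-glucoamylase gene and partner of sucrase-isomaltase, fell by 9.20 ± 0.66 (log2 ± SE, edgeR adjusted p = 5.70e-04), from 205 to 0.312 CPM on average. The list's median log2 fold change was -6.05, beside 0.01 over all genes tested. Of 22 other detoxification genes 19 were lower and 1 higher, with a median of -4.14. The guanine deaminase gene Gda fell by 4.98 ± 0.48 and the glucuronosyltransferase gene Ugt2b34 by 2.12 ± 0.36, although Ugt2b34 did not pass with library totals (-1.04).

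Of 23 other transporter genes 18 were lower and 0 higher, with a median of -3.53. Slc7a8, a basolateral amino acid exchanger gene, fell by 2.54 ± 0.24. Slc16a10, an aromatic amino acid transporter gene, did not pass (-0.88 ± 0.37, adjusted p = 0.114) and passed with the replicate number as a block (-0.89) and without high 1 (-1.30). Of 14 other lipid absorption genes 7 were lower and 0 higher, with a median of -1.15. The acyl-CoA synthetase gene Acsl5 did not pass (-0.61 ± 0.32), except without low 3 (-0.87). Slc27a4, a fatty acid transport protein gene, passed narrowly (-1.13 ± 0.35, adjusted p = 0.0475). It did not pass without any 1 of low 1, low 2, high 1, high 2 or high 3 (-1.16 to -0.90), with limma-voom (-0.99) or with library totals (-0.07).

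Genes of the microvillus were lower in 12 of 19 tested cases, with a median of -1.17. Cdhr2, a protocadherin gene that links the tips of microvilli, fell by 5.72 ± 0.66, from 301 to 5.66 CPM. Krt20, a keratin gene of differentiated gut epithelium, fell by 4.21 ± 0.46, from 254 to 13.7 CPM. Among 17 transcription factor genes of intestinal epithelium 11 were lower and 0 higher, with a median of -1.42. Vdr, the vitamin D receptor gene, fell by 2.67 ± 0.39 (adjusted p = 0.00359). Hnf4a, which islets express as well, fell by 1.38 ± 0.35 (adjusted p = 0.0255). Its call was lost without low 1 (-1.21), low 2 (-1.32) or high 3 (-1.31) and with library totals (-0.34). With library totals 3 transcription factor genes, 5 microvillus genes and 2 transporter genes were higher.

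Marker lists named for other intestinal cell types were examined next. These are bulk levels, and the presence of such cells was not tested. Of all genes tested, 14.2% were lower and 13.3% higher at high glucose. The link between being lower and passing the filter only through low glucose libraries holds for all the marker lists below too. Of 8 goblet cell markers tested all 8 were lower, with a median of -5.93. The transmembrane mucin gene Muc13 fell by 5.98 ± 0.38, from 350 to 5.50 CPM. Zg16, also an acinar gene, fell by 3.40 ± 0.60. Without Zg16, the goblet list summed to 1333, 733 and 445 CPM in low 1 to low 3 and to 13.9, 9.79 and 9.52 CPM in high 1 to high 3. Of 10 Paneth cell markers only 2 passed the filter and neither was called, whereas 5 were lower with a filter of any count. The lysozyme gene Lyz1 had 238, 21 and 30 counts at low glucose and 67, 0 and 3 at high glucose, and it passed with the replicate block (-4.02) and without high 1 (-6.84). The intelectin gene Itln1 had 132, 5 and 1 counts against 3, 0 and 2. Of 8 crypt stem cell markers tested 5 were lower, among them Rgmb (-0.77 ± 0.15), which had the other sign with library totals (0.38) and did not pass without high 3 (-0.75). The cotransporter gene Slc12a2 did not pass (-0.20 ± 0.26) and was called higher with library totals (0.99). With library totals 2 genes of the crypt stem cell list were lower and 1 was higher. The median ratio of low 1 to low 3 over its tested genes was 0.873. Lgr5 and Ascl2 of that list, named after their values were seen, did not pass the filter. They had at most 9 and 3 counts in any library.

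Of 4 enteroendocrine markers tested 1 was lower, where 14.2% of all genes tested were. The incretin gene Gip had 169, 40 and 7 counts against 3, 1 and 0, and did not pass the filter. Pyy, which islets express too, did not pass (0.01 ± 0.30), although it did with library totals (1.19). Of 4 tuft cell markers tested 1 was lower, and 2 were lower and 1 higher with the replicate block. Dclk1 (1.18 ± 0.56) did not pass in the fit without it. With 1 library left out the enteroendocrine list had from 0 (without low 1 or low 2) to 3 lower calls (without high 1). The tuft list had 0 (without low 1, low 2 or high 2) to 2 (without low 3 or high 1), and 3 with DESeq2. With library totals each of these lists had 0 lower and 1 higher. Of 8 T-lymphocyte markers tested 3 were lower, 6 with the replicate block and 7 without high 1. The granzyme gene Gzma fell by 4.59 ± 0.86, from 11.1 to 0.425 CPM, and Gzmb did not pass (-2.92 ± 0.94, adjusted p = 0.0539), although it did with DESeq2 (-2.97) and limma-voom (-3.89). That list summed to 59.6, 44.4 and 21.5 CPM in low 1 to low 3 and to 19.3, 2.05 and 4.28 CPM in high 1 to high 3.

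Several defining genes of neighbouring organs and gut regions were at 0 counts in all 6 libraries. These were the ileal bile acid genes Fabp6 and Slc10a2, the colonic genes Car1, Hoxb13, Hoxd10 and Mptx1, the gastric genes Gkn1, Gkn2, Atp4b and Gif, and the hepatocyte genes Cyp7a1 and Hpd. A count of 0 allows up to 3 counts, or 0.251 to 0.499 CPM in the low glucose libraries. The albumin gene Alb, an abundant liver transcript, had 21, 21 and 18 counts at low glucose and 7, 9 and 3 at high glucose. Other genes of these lists were counted. Cps1 of the hepatocyte list had 437, 69 and 44 counts in low 1 to low 3 and 0 at high glucose. In low 1 to low 3 Aqp8 of the colonocyte list had 130, 195 and 136 counts, and Tff2 of the gastric list 6871, 8482 and 8494. Folh1 of the apical hydrolase list and Defa22 of the Paneth list were also at 0 in all 6 libraries. The zeros, Alb and Cps1 were picked out after the values had been seen.

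The other marker lists held genes that the pancreas also expresses. Their calls stand beside 14.2% lower and 13.3% higher of all genes tested. Of 6 hepatocyte markers tested 4 were lower and 1 higher, and Ttr, an islet gene too, fell by 1.65 ± 0.27 but did not pass with library totals (-0.54). Of 3 gastric markers tested 2 were lower and 1 higher. Tff2 (-2.31 ± 0.58) lost its call without low 2, low 3 or high 2, and Atp4a (-2.07 ± 0.48) lost it without any 1 low glucose library and with library totals. Of 4 colonocyte markers tested 2 were lower, including the water channel gene Aqp8 (-4.30 ± 0.49), and Slc26a2 did not pass (-1.12 ± 0.35), although it did with DESeq2 and without low 3 or high 1. Of 10 duct markers 4 were lower and 2 higher. The duct keratin gene Krt19 rose by 2.89 ± 0.56, losing its call without low 2 (2.76), and Muc1 did not pass (-0.66 ± 0.61).

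Of 10 general epithelial genes, which islet, duct, acinar and gut cells share, 6 were higher, 0 were lower and 4 did not pass, with a median of 1.404. With library totals all 10 were higher. In the main fit 14.2% of all genes tested were lower and 13.3% higher. The keratin gene Krt8 rose by 2.75 ± 0.51, from 263 to 1770 CPM. The E-cadherin gene Cdh1 rose by 1.71 ± 0.45, but its call was lost without any 1 library other than high 1. The list had 3 higher calls without low 2, low 3, high 2 or high 3. Of 28 acinar markers 25 were lower, 13 without low 2 or without high 3 and 16 without low 3 or without high 2. The lipase gene Pnlip fell by 3.31 ± 0.84, with its call lost without low 2, low 3, high 2 or high 3, and Ctrb1 did not pass (-1.72 ± 0.73), although it did with DESeq2 and with the replicate block. Of 13 islet markers 1 was lower and 1 higher (4 and 3 with the replicate block). The number higher was 5 with library totals and 0 without any 1 library other than high 1, and the number lower was 3 without high 1, with DESeq2 or with limma-voom. Ins1 (-0.43 ± 0.44) and Ins2 (-0.41 ± 0.51) did not pass.

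**Figure D4:**
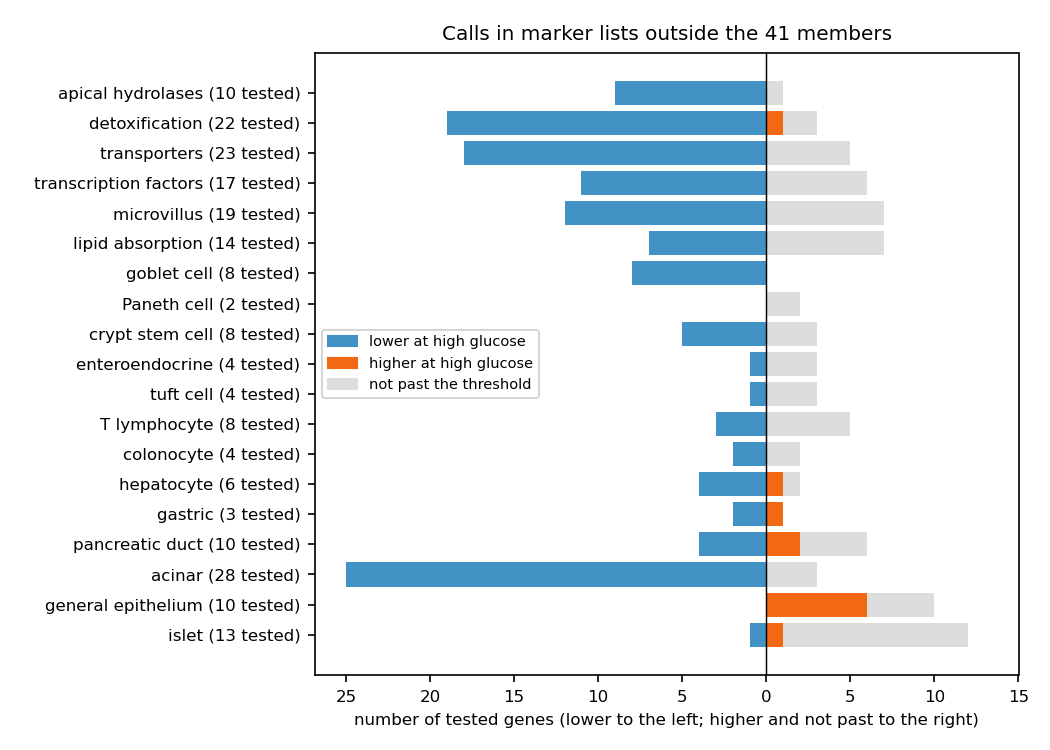
Number of tested genes in each marker list outside the 41 genes that were lower (left, blue) or higher (right, orange) at high glucose or did not pass (grey), by edgeR. The apical hydrolase list has 9 of 10 genes lower, and the general epithelium list is the only one with more higher than lower calls.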

How the data were processed

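Polyadenylated RNA of 6 islet libraries was sequenced. The deposited table gives counts of reads per Ensembl gene with no normalization, and per the submitters' processing notes STAR 2.7.3a, HTSeq 0.6.1p1 and GRCm38 were used. The authors' annotation release, strand setting and handling of barcodes are not given in the sources used here. Columns were matched to samples by name and groups came from the treatment label. Names, positions and exon lengths came from GENCODE M21 (GRCm38), and promoters from RefSeq.

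The contrast of high against low glucose was fitted by quasi-likelihood in edgeR 4.0.16 (R 4.3.3) with TMM scaling, filterByExpr defaults (minimum count 10, minimum total 15) and Benjamini-Hochberg adjustment over 13996 genes at 0.05. Each SE was derived from the log2 fold change and its F statistic. Since no label ties the libraries to different mice or cultures, the p-values reflect spread among these 6 samples alone, and it may be technical. Same-numbered libraries deviated together, with correlations of 0.40, 0.26 and 0.25. Pairs of unlike number had correlations from -0.31 to 0.07. Deviations sum to 0 within a group of 3 libraries, so these correlations are not independent of each other. This pairing comes from the data, since no label states it, and a blocked fit (replicate number as the block) was run beside the unblocked one. The members and lists were chosen with earlier results of these data known. Named genes were all members and the 2 most abundant genes of each other list at low glucose, some of which are not reported here. Alternatives used DESeq2 1.42.0 and limma-voom (limma 3.58.1), other scalings and filters, and each library left out.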

Additional observations from a re-analysis of the deposited data

How the results depend on the processing

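The median log2 ratio over the 41 genes was -6.17 with library totals, where the median of all genes moved from 0.01 to 1.16. It lay between -8.34 (without high 1) and -6.60 (without low 1) with 1 library left out. From 35 to 40 of the 41 genes then passed as lower, 33 with library totals, and none as higher. The count of all changed genes was 8965 with library totals (628 lower and 8337 higher). With 1 library left out it ranged from 1743 (without low 2) to 5685 (without high 1), with 1035 to 2892 lower and 708 to 2793 higher. In the 6 absorptive lists 12 genes were higher with library totals and 2 with the replicate block. With 1 library left out 65 to 81 were lower and 0 to 4 higher. Rgmb had the other sign with library totals (0.38). With the replicate block 4670 genes changed, and beyond the calls named in the text it made Muc1, Gzmb, Dclk1, Slc26a2 and Ctrb1 pass and changed no other call of a gene named in the text. DESeq2 size factors and scaling without acinar markers, the latter added after the data had been seen, each called 37 of the 41 genes lower. The order of the low glucose libraries held for 40 genes with library totals, as it then did for 51.03% of all genes tested. Few counts limit the high glucose values, where 1 count was 0.0354 to 0.0504 CPM.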
